A study of Triticum aestivum with 15 samples.

Results

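The probe sets described here are 24 of the 61290 on the Affymetrix Wheat Genome Array, all placed in the chloroplast by the study's supplementary list of genes modulated by cytoplasm substitution. They were chosen by the identifier, class, localization and description given in that list. Of its 560 usable entries 63 are placed in the chloroplast, and 39 of these were left out because they are named as LHCII, APX4, ELIP, lipoxygenase, HEMA1, FLU or EXECUTER 2 or belong to 7 excluded sequence clusters. What is left is a mixed set of 22 clusters, with 4 probe sets for ribosomal proteins, 2 for subunits of RNA polymerase, 5 for photosystem II, the thylakoid lumen and cytochrome assembly, 2 for the Calvin cycle, 3 for chaperones and Clp proteins, 3 for transporters, 2 for amino acid synthesis and 3 others. Because the list itself was drawn up from the contrasts of the alloplasmic lines with their controls, the differences in those contrasts are given as a description and without a test.

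Leaf RNA came from 14-day-old seedlings of 5 lines of Triticum aestivum, hybridized to 15 arrays. Each line had 3 biological replicates, and each replicate pooled the plants of its pot. T20 (EU_T20) and the cultivar Chris (EU_CHRIS) are euplasmic, so that nucleus and cytoplasm are both wheat. TH237 (ALLO_TH237) carries the nucleus of T20 and the cytoplasm of Hordeum chilense accession H7, T183 (ALLO_183) the nucleus of Chris and the cytoplasm of Aegilops uniaristata, and T195 (ALLO_195) the nucleus of Chris and the cytoplasm that the labels give as Aegilops squarrosa, which the study calls Aegilops tauschii. TH237 was made with fewer backcrosses than the other alloplasmic lines, and each cytoplasm is represented by a single line. All values are MAS 5.0 signals, a relative brightness on a linear scale, and differences are given as log2(signal + 16) with the standard error of a linear model of the 15 arrays.

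Chloroplasts hold a small genome of their own, but most of their proteins are encoded in the nucleus, made in the cytosol and imported. The plastid genes for the photosynthetic machinery are read by a polymerase of bacterial type, whose core subunits are plastid-encoded, and their messages are translated on plastid ribosomes built from proteins of both genomes. In alloplasmic wheat the nucleus meets plastids and mitochondria of another species. By the descriptions in the list, 5 of the 24 probe sets are for plastid-encoded products: rps16, rpoA, the polymerase beta chain, psbA and ccsA. The other 19 are for products described as nuclear or not assigned to a genome. Since each alloplasmic line has the cytoplasm of another species, a change in the plastid sequence under the probes and a change in the amount of RNA cannot be told apart for the plastid-encoded products. For products of nuclear genes the same holds between the nuclei of T20 and Chris, which are different wheats. It may also hold between TH237 and T20, because TH237 was made with fewer backcrosses. How far the nuclei of these 2 lines differ was not tested. In whole leaves, fewer cells of a type and less RNA per cell also cannot be told apart.

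R-squared between arrays of a line ran from 0.915 to 0.939 over 15 pairs. The leaf origin could be checked through the symbol rbcL, the gene of the large subunit of rubisco, which marks 28 probe sets, of which 7 lay above the 55th percentile of every array and the brightest had signals of 37969 to 76892. Of 11 probe sets with symbols of seed storage proteins, 9 were above that percentile on no array and none was on all 15, and the highest signal was 179.7. T20 replicate 2 stood apart for the plastid-encoded products. All 5 were higher there than the mean of the other T20 arrays, by 1.01 to 2.39 with a median of 1.27, whereas the median of the other 19 was -0.04. T20 replicate 1 was low for all 5, with a median of -1.23 against the other T20 arrays. Without the polymerase beta chain, whose origin is not settled, the medians were 1.15 and -1.13. The TH237 values of these products are given with all arrays and without either one.

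TH237 was the line in which most of the probe sets left the level of the control. By the study's counts most genes of its list were altered in this line, so that this order of the lines was built into the choice. Of the 24 probe sets, 17 lay above the 55th percentile of their array on all 15 arrays, and 23 passed the filter on dim signals, which asks for 3. Of the 23, 15 were called higher and 4 lower than in T20, where called means a Benjamini-Hochberg adjusted p of at most 0.05 in limma and a difference of at least 2-fold. Over all 31555 probe sets tested, 1.35% were called higher and 0.925% lower in TH237, a share that says nothing about the 24, since the list was chosen on this contrast. Their median difference was 1.32, and the median of all probe sets was 0.00. On the arrays themselves, the 3 TH237 signals lay above all T20 signals for 18 of the 24 and below them for 4, while 24.8% of all probe sets tested had no overlap.

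The Aegilops cytoplasms were accompanied by few called differences, in contrasts where the study had found few of the genes of its list. T183 had none among the 23 in either direction (0.0254% called higher and 0.0982% lower over all probe sets), with 2 higher and 7 lower at an unadjusted p of at most 0.05 in limma (6.89% of all probe sets in either direction). T195 had 2 lower and none higher (0.222% lower and 0.0317% higher over all probe sets), with 7 lower and none higher at the unadjusted p (11.2% of all). The 2 were ccsA and PsbX. The shares over all probe sets say nothing about the 23 here, since the list was chosen on these contrasts. The median difference was -0.32 in T183 and -0.20 in T195. The arrays of T183 lay above all of Chris for 2 probe sets and below for 6 (11.6% of all probe sets tested had no overlap), and those of T195 lay above for none and below for 6 (16% of all). In 5 of the 23, all arrays of TH237 lay on one side of T20 and all arrays of T183 or T195 on the opposite side of Chris, as did 4.47% of all probe sets tested. T183 and T195 were compared with the same Chris arrays, so that the values of both move with any error in Chris.

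**Figure D1:**
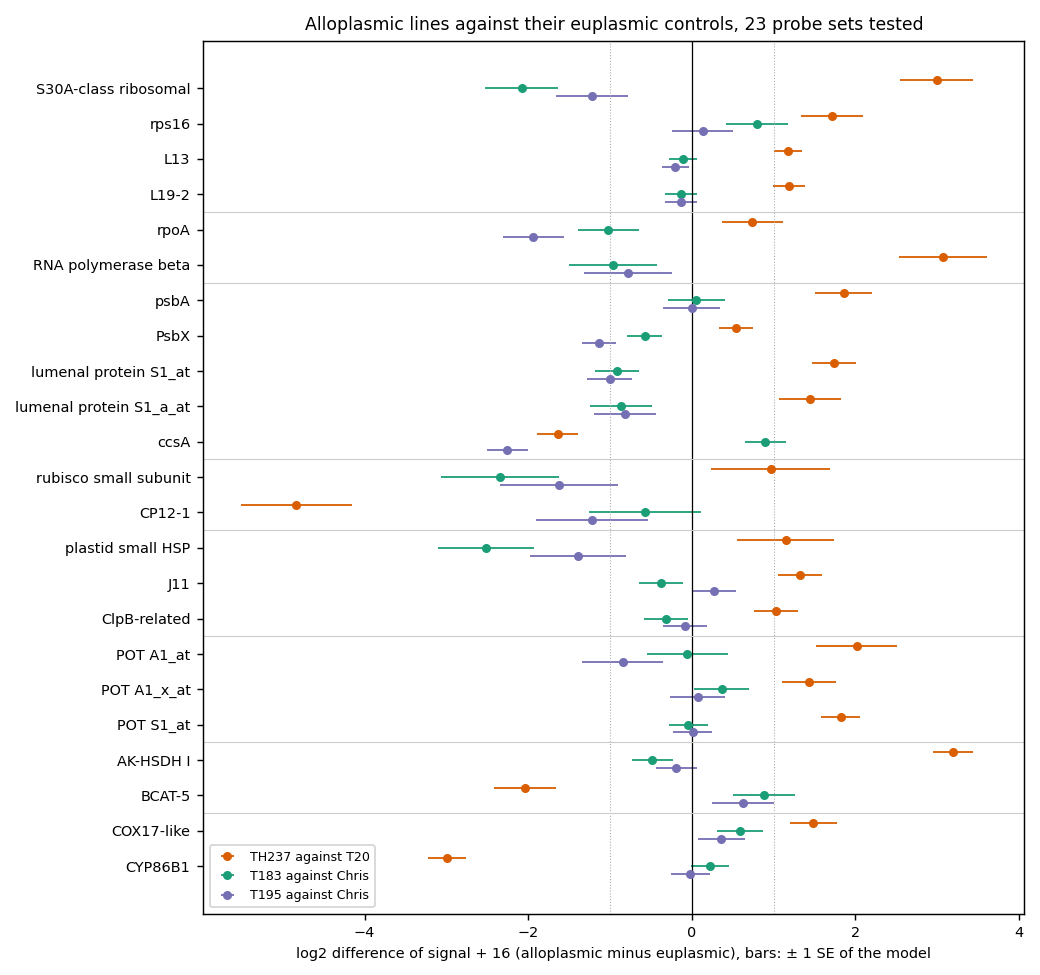
Log2 difference of signal + 16 (horizontal axis) for 23 probe sets grouped by role, with points for TH237 against T20, T183 against Chris and T195 against Chris, bars for 1 standard error of the model on either side and dotted lines at 2-fold. The TH237 points run from -4.83 for CP12-1 to 3.19 for AK-HSDH I, with 19 of 23 above 0, and those of T183 from -2.52 to 0.90.

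The ribosomal proteins were higher in TH237 than in T20 in all 4 probe sets, with a median of 1.45. S30A was grouped with the plastid ribosome by its name in the list, and its role there was not tested. Its probe set (Ta.25016.1.A1_s_at) had signals of 466, 525 and 1369 on the T20 arrays, 6009.8, 6043 and 4982 for TH237, 86.9, 222 and 162 for Chris, 4.98, 44.2 and 29.7 for T183 and 53.5, 39.2 and 73.7 for T195. The lines did not overlap in any of the 3 contrasts with a control, and the direction in TH237 was opposite to that in the Aegilops lines. TH237 differed from T20 by 2.99 ± 0.44, T183 from Chris by -2.08 ± 0.44 and T195 from Chris by -1.22 ± 0.44. In T183 and T195 the probe set was below the 55th percentile on every array, so that the differences are bounds there, at least 1.44-fold lower and at least 1.52-fold lower than Chris.

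L13 (Ta.2076.1.S1_at) and L19-2 (Ta.2419.1.S1_at) are nuclear-encoded proteins of the large subunit of the plastid ribosome. L13 had signals of 958, 1213 and 1084 on the T20 arrays, 2670.0, 2936 and 1898 for TH237, 4292, 3739 and 4298 for Chris, 3971, 3526 and 3911 for T183 and 3299.9, 3959.6 and 3475 for T195. L19-2 had 757, 1045 and 882 on the T20 arrays, 2071, 2652 and 1554 for TH237, 3218, 3537 and 4089 for Chris, 3258, 2911 and 3728 for T183 and 3016, 3530.0 and 3352 for T195. For both, T20 was the lowest of the 5 lines and TH237 lay between T20 and the 3 lines with the Chris nucleus, with no overlap on either side. The TH237 differences were 1.18 ± 0.17 for L13 and 1.19 ± 0.20 for L19-2, and T183 and T195 differed from Chris by -0.20 to -0.11 for both.

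The protein rps16 of the small subunit is plastid-encoded. Its probe set (TaAffx.4142.2.S1_at) had signals of 203, 778 and 315 on the T20 arrays, 1047, 1053 and 1781 for TH237, 536, 744 and 439.6 for Chris, 904, 1086 and 979.9 for T183 and 734, 594 and 535 for T195. All TH237 and all T183 arrays were above those of their controls, by 1.72 ± 0.38 and 0.80 ± 0.38. T195 overlapped with Chris. The difference in TH237 was 1.31 without T20 replicate 1 and 2.24 without T20 replicate 2. The call was lost without T20 replicate 1 or 3 and without TH237 replicate 2 or 3.

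By their descriptions, 2 probe sets are for the alpha and beta subunits of the polymerase of bacterial type. The beta chain (TaAffx.105136.1.S1_at) is named from a database match to the plastid-encoded subunit, while the Arabidopsis match in the list is to the largest subunit of nuclear RNA polymerase II, so that the origin of this probe set is not settled. Its signals were 1358, 7918 and 1642 on the T20 arrays, 23091, 18598 and 25021 for TH237, 3967, 2963 and 2876 for Chris, 2084, 1477 and 1464 for T183 and 3413, 1147 and 1677 for T195. TH237 was far above T20 and every other line, by 3.07 ± 0.54 over T20. This was 2.61 without T20 replicate 1 and 3.87 without T20 replicate 2. The T183 arrays lay below those of Chris (-0.96 ± 0.54), and the T195 arrays overlapped with them (-0.78 ± 0.54).

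The alpha subunit, rpoA (TaAffx.129824.3.A1_at), had signals of 207, 764 and 455 on the T20 arrays, 955, 467 and 795 for TH237, 896, 1129 and 694 for Chris, 458, 359.6 and 483 for T183 and 209.7, 212 and 241 for T195. TH237 overlapped with T20 and was higher by 0.74 ± 0.37, a value that was 0.26 without T20 replicate 1 and 1.16 without T20 replicate 2. Both Aegilops lines were below Chris with no overlap, by -1.02 ± 0.37 in T183 and by -1.94 ± 0.37 in T195. Neither difference was called with all arrays, and that of T195 was called without T20 replicate 1 or T20 replicate 2.

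Photosystem II was represented by psbA, the plastid gene of the D1 reaction centre protein, and by PsbX, a small nuclear-encoded subunit. The psbA probe set (TaAffx.128757.1.S1_at) had signals of 5562, 14537 and 8944 on the T20 arrays, 26847, 31701 and 40452 for TH237, 14169, 10589 and 7035 for Chris, 7216, 12586 and 12966 for T183 and 8659, 10885 and 11171 for T195. TH237 was the line apart, higher than T20 by 1.86 ± 0.35 (1.51 without T20 replicate 1 and 2.20 without replicate 2), and the other 4 lines overlapped. T183 and T195 differed from Chris by 0.05 ± 0.35 and -0.00 ± 0.35.

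PsbX (Ta.20878.1.S1_at) had signals of 1317, 1598 and 2247 on the T20 arrays, 2550.1, 2484 and 2331 for TH237, 1130.1, 1084 and 1193 for Chris, 557, 913 and 848 for T183 and 467, 589.5 and 474 for T195. All TH237 arrays were above T20, and all T183 and T195 arrays were below Chris. The differences were 0.54 ± 0.21 for TH237, -0.58 ± 0.21 for T183 and -1.14 ± 0.21 for T195. The last was called, but close to the limit of the test, since leaving out any of 10 arrays in turn ended the call.

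A pair of probe sets (Ta.7928.1.S1_at and Ta.7928.2.S1_a_at) belongs to a protein of the thylakoid lumen, the space enclosed by the photosynthetic membrane. The first had signals of 389, 487 and 571 on the T20 arrays, 1628, 1763 and 1515 for TH237, 798, 827 and 1476 for Chris, 415, 606 and 556 for T183 and 701, 451 and 362 for T195. TH237 was higher than T20 by 1.74 ± 0.27, and both Aegilops lines were lower than Chris, by -0.91 ± 0.27 and -1.01 ± 0.27, with no overlap. The S1_a_at probe set was dimmer, with 123 to 298 in T20 and 436 to 616 in TH237, and gave 1.44 ± 0.38, -0.87 ± 0.38 and -0.82 ± 0.38 for TH237, T183 and T195. In this probe set the Aegilops lines overlapped with Chris.

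The plastid gene ccsA encodes a protein that helps to attach haem to cytochromes of the thylakoid. Its probe set (TaAffx.4544.2.S1_s_at) had signals of 6022, 13626 and 7562 on the T20 arrays, 2894, 2195 and 3197 for TH237, 4269, 4987 and 5434 for Chris, 8467, 9325 and 9578 for T183 and 915, 967 and 1153 for T195. Each alloplasmic line was apart from its control. It was the only plastid-encoded product of the 5 that was lower in TH237, by -1.64 ± 0.25 (-1.89 without T20 replicate 1 and -1.30 without replicate 2), and it was higher in T183 by 0.90 ± 0.25 and lower in T195 by -2.26 ± 0.25. The T195 call was kept when any of the 15 arrays was left out.

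**Figure D2:**
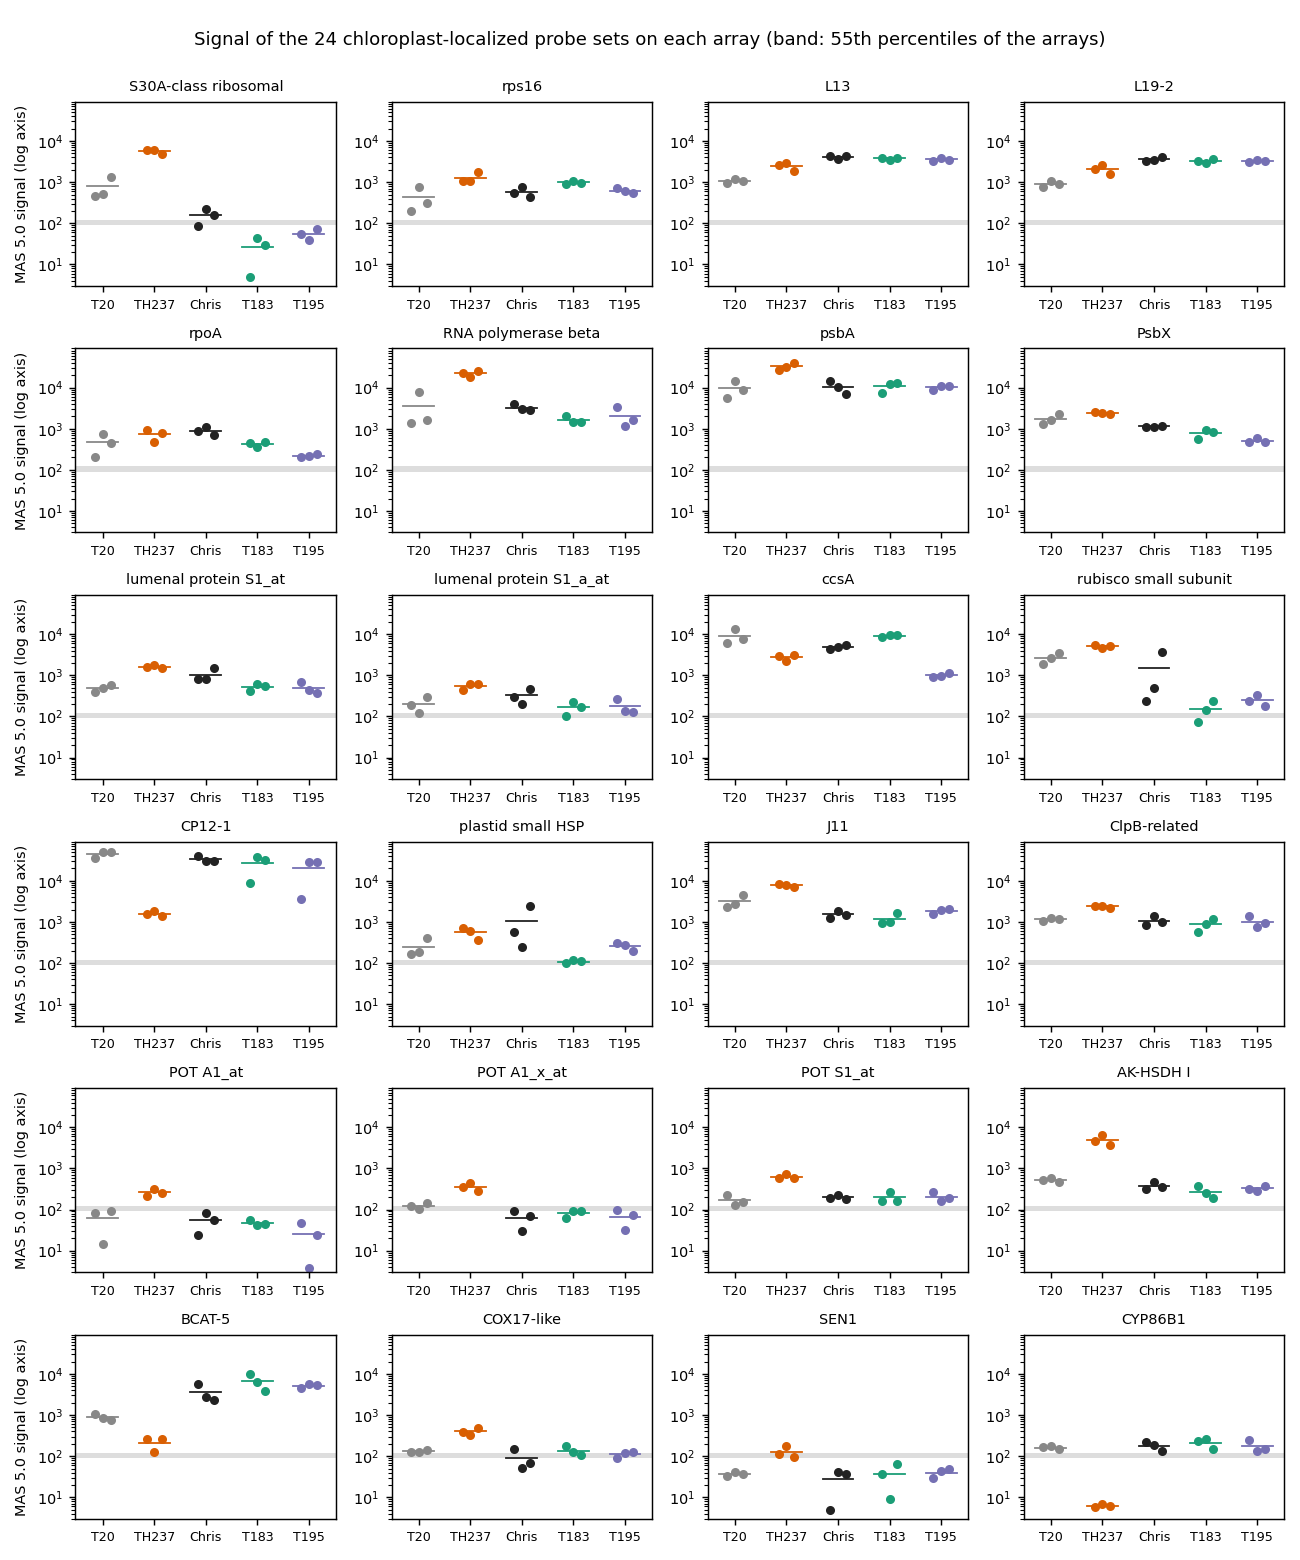
MAS 5.0 signal on a log axis (vertical) for the 24 probe sets in the 5 lines (horizontal), with a point per array, a short line at the mean of 3 arrays and a grey band for the range of the 55th percentiles of the arrays (90.0 to 121). For ccsA the T195 arrays lie at 915 to 1153 and those of Chris at 4269 to 5434.

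Of the 2 Calvin cycle probe sets 1 was called in TH237, and it was lower. CP12-1 (Ta.1989.3.S1_s_at) is a small protein that binds glyceraldehyde-3-phosphate dehydrogenase and phosphoribulokinase and holds them inactive in the dark. It had signals of 35320.0, 51285 and 50448 on the T20 arrays, 1521, 1803 and 1395 for TH237, 39373, 30696 and 29877 for Chris, 8782, 38382 and 32716 for T183 and 3555, 28126 and 28591 for T195. The difference of TH237 from T20, -4.83 ± 0.68, was the largest of the 23 in that contrast. A single array was low in each Aegilops line, replicate 1 in both, and the differences were -0.57 ± 0.68 in T183 and -1.22 ± 0.68 in T195. They were 0.10 without T183 replicate 1 and -0.22 without T195 replicate 1.

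A probe set for the small subunit of rubisco (Ta.20830.1.A1_at), the enzyme that fixes carbon dioxide, had signals of 1853, 2681 and 3516 on the T20 arrays, 5486, 4733 and 5045 for TH237, 239, 485 and 3776 for Chris, 72.4, 146 and 243 for T183 and 235, 326 and 177 for T195. No other probe set for this subunit was compared, so that these signals do not give its total RNA. TH237 was above T20 on all arrays, by 0.96 ± 0.73, a difference that was not called. Chris replicate 3 was far above the other Chris arrays. The T183 difference of -2.34 ± 0.73 was -1.21 without it, and the T195 difference of -1.62 ± 0.73 was -0.49.

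The same array was high for the plastid small heat shock protein (Ta.12042.1.S1_at), a chaperone that keeps unfolded proteins from aggregating. Its signals were 169, 190.1 and 397 on the T20 arrays, 714, 611 and 356 for TH237, 556, 249 and 2375 for Chris, 100.1, 116 and 110.2 for T183 and 307, 272 and 199 for T195. TH237 overlapped with T20 and T195 with Chris, whereas all T183 arrays were below Chris. The differences were 1.15 ± 0.59 for TH237, with -2.52 ± 0.59 for T183 and, for T195, -1.39 ± 0.59. Without Chris replicate 3 they were -1.64 in T183 and -0.52 in T195, and without Chris replicate 2 the T183 difference was called.

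J11 (Ta.17683.1.S1_at) is a small J-domain protein of the chloroplast, a co-chaperone that stimulates the ATPase of Hsp70 proteins. It had signals of 2335, 2782 and 4592 on the T20 arrays, 8450.0, 7834 and 7080.0 for TH237, 1243, 1842 and 1489 for Chris, 946, 967 and 1683 for T183 and 1544, 1923 and 2037 for T195. TH237 was above T20 by 1.32 ± 0.27 and T20 above the 3 lines with the Chris nucleus, again with no overlap. The probe set described as related to ClpB (Ta.7026.1.A1_at), a relative of the disaggregating Clp ATPases, had 1036, 1277 and 1175 in T20 and 2488, 2463 and 2200.2 in TH237. Its difference of 1.03 ± 0.27 was the closest to the 2-fold limit among the TH237 calls, and it was 0.95 without T20 replicate 1. In T183 and T195 both J11 and the ClpB-related probe set overlapped with Chris, with differences between -0.38 and 0.27.

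The 3 transporter probe sets are described as proton-dependent oligopeptide transporters, with a database match to a nitrite transporter of the chloroplast, and all share 1 Arabidopsis match, so that they may not be separate genes. The best measured (TaAffx.67941.1.S1_at) had signals of 228, 127 and 156 on the T20 arrays, 587, 736 and 574 for TH237, 189, 229 and 185 for Chris, 164, 268 and 165 for T183 and 262, 165 and 189 for T195. It was higher in TH237 by 1.82 ± 0.24 and stood at -0.04 ± 0.24 in T183 and 0.01 ± 0.24 in T195. The other cluster, with the probe sets Ta.25666.1.A1_at and Ta.25666.1.A1_x_at, was higher in TH237 by 2.02 ± 0.50 and 1.43 ± 0.33. A1_at was below the 55th percentile on every T20 array (14.2 to 93.2) and had 219 to 324 in TH237, which is at least 2.46-fold higher. This probe set passed the filter through its TH237 arrays alone, so that it had to be higher there, and its difference was 1.43 without T20 replicate 2. Both were below the percentile in Chris, T183 and T195, where no fold is given.

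Amino acid synthesis was represented by a pair of enzymes that differed from T20 in opposite directions. AK-HSDH I (Ta.4812.1.S1_at), the bifunctional aspartate kinase and homoserine dehydrogenase of the pathway to threonine and methionine, had signals of 525, 574 and 473 on the T20 arrays, 4666, 6694 and 3787 for TH237, 323, 469 and 345 for Chris, 371, 255 and 191 for T183 and 313, 289 and 383 for T195. At 3.19 ± 0.25 it had the highest positive difference in TH237. BCAT-5 (TaAffx.95414.1.S1_at), a branched-chain amino acid aminotransferase, catalyses the last step of the synthesis of valine, leucine and isoleucine. It had 1078, 851 and 749 on the T20 arrays, 256, 123 and 259 for TH237, 5696, 2817 and 2322 for Chris, 9821, 6242 and 3862 for T183 and 4632, 5540.1 and 5406 for T195. TH237 was lower than T20 by -2.04 ± 0.38, and T20 was lower than the 3 lines with the Chris nucleus, none of whose arrays overlapped with those of T20. T183 and T195 overlapped with Chris for both enzymes.

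Of the others, 2 carry descriptions that do not point to the chloroplast. The COX17-like probe set (TaAffx.59837.2.S1_at) is described as a copper chaperone of cytochrome c oxidase, the terminal oxidase of mitochondria, and had 123, 129 and 143 in T20 and 389.7, 329 and 489.6 in TH237, a difference of 1.49 ± 0.28. On the 9 arrays with the Chris nucleus it had between 52 and 177. CYP86B1 (TaAffx.59478.1.S1_at) is a cytochrome P450 that in Arabidopsis acts in the synthesis of suberin. It had 163, 173 and 148 in T20, 5.85, 6.9 and 6 in TH237 and between 135 and 259 on the 9 arrays with the Chris nucleus. All TH237 arrays were far under the 55th percentile, so that the fitted difference of -2.99 ± 0.24 depends on the 16 added before the log2, and the bound is at least 1.42-fold lower. SEN1 (Ta.27763.1.S1_at), a gene of dark-induced senescence in Arabidopsis, was too dim to be tested. It had 111, 173 and 95.9 in TH237 and at most 65.9 on any array of another line. Only 1 of the TH237 arrays was above the 55th percentile, so that no fold is given.

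In the contrast between the nuclear backgrounds, 14 of the 23 probe sets were called, 9 higher and 5 lower with the T20 nucleus. The 9 include S30A, POT A1_at and POT A1_x_at, which passed the filter through arrays on the higher side. With the euplasmic lines alone 2 were called higher and 4 lower (3.14% and 4.19% of all probe sets), and with the alloplasmic lines alone 16 and 3 (8.38% and 7.45%). This contrast sets the mean of T20 and TH237 against the mean of Chris, T183 and T195, and its errors are independent of those of the contrasts that chose the list. Over all probe sets tested, 6% were called higher and 5.76% lower. The share among the 23 cannot be read against these, because TH237 enters with a weight of 0.5, so that 0.5 of each TH237 difference is in the contrast, and because the list favoured probe sets with little spread between replicates. An adjusted p of this contrast may likewise rest on TH237 and does not by itself show a difference between the nuclei. The values of T20 against Chris, which hold no alloplasmic line, are therefore given beside those of the contrast and without a test, since the T20 arrays also took part in the choice.

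The ribosomal proteins were divided. S30A was at least 17.6-fold higher with the T20 nucleus, a bound because T183 and T195 were dim on every array. With the Chris nucleus only 2 arrays, both of Chris, were above the percentile. The probe set thus passed the filter through its T20 and TH237 arrays, and no p is given. The fitted difference was 4.72 ± 0.29 with 16 added before the log2, 5.18 with 1 and 3.997 with 64, and T20 against Chris was 2.12 ± 0.44. In contrast, L13 fell by 1.22 on the log2 scale (SE 0.11, limma adjusted p 1.45e-06) and L19-2 fell by 1.32 (SE 0.13, limma adjusted p 2.74e-06), with T20 against Chris at -1.91 ± 0.17 and -2.00 ± 0.20. For L13 and L19-2 the TH237 difference thus ran toward the level of Chris, and for S30A away from it. BCAT-5 fell by 3.43 (SE 0.24, limma adjusted p 1.74e-07) and T20 against Chris was -1.90 ± 0.38, so that TH237 was farther from Chris than T20 was. AK-HSDH I rose by 2.29 ± 0.16 (limma adjusted p 1.54e-07), and T20 against Chris was 0.46 ± 0.25. For AK-HSDH I the difference of TH237 from T183 and T195 was 3.99 ± 0.22, so that its adjusted p may rest on TH237.

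J11 rose by 1.73 ± 0.17 (limma adjusted p 4.16e-06) and PsbX by 1.40 ± 0.14 (limma adjusted p 3.07e-06), with T20 against Chris at 1.04 ± 0.27 and 0.56 ± 0.21. The POT A1_x_at probe set was dim on all arrays with the Chris nucleus and at least 2.06-fold higher with that of T20. It passed the filter through T20 and TH237 arrays alone and so had to be higher, and no p is given. In these 3, in S30A, L13, L19-2, AK-HSDH I and BCAT-5, all T20 arrays were apart from Chris and all TH237 arrays apart from T183 and T195 in the direction of the call. Such a pattern together with a call was found in 8.41% of all probe sets tested. This share cannot be read against the members named, since TH237 took part in their choice. S30A and POT A1_x_at also passed the filter through arrays with the T20 nucleus. The gap between T20 and Chris was narrow for AK-HSDH I, with a lowest T20 signal of 473 and a highest Chris signal of 469. For POT A1_x_at these signals were 103 and 89.9. The probe set for the rubisco small subunit rose by 3.54 ± 0.47 (limma adjusted p 4.79e-05), and T20 overlapped with Chris through Chris replicate 3 (1.73 ± 0.73).

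For the other 5 called probe sets the T20 arrays overlapped with those of Chris, so that an adjusted p here does not show a difference between the nuclei. CYP86B1 was at least 1.37-fold lower, a bound because TH237 was dim, and T20 against Chris was -0.12 ± 0.24. Its fitted difference was -1.68 ± 0.15 with 16 added (limma adjusted p 1.66e-06), -2.44 with 1 and -0.99, no longer called, with 64. POT A1_at had to be higher in this contrast too, since it was dim in all lines but TH237, and no p or T20 value is given. COX17-like rose 2.01-fold (limma adjusted p 0.000672) with T20 against Chris at 0.58 ± 0.28. The polymerase beta chain rose by 1.81 ± 0.35 (limma adjusted p 0.000975) and CP12-1 fell by 1.37 (SE 0.44, limma adjusted p 0.0236), while T20 against Chris was -0.31 ± 0.54 and 0.45 ± 0.68. In these 2 the sign of the contrast was not that of the difference between the euplasmic lines. The call of CP12-1 was lost without T20 replicate 1 (-1.29) or TH237 replicate 3 (-1.33), that of COX17-like when 1 of 7 arrays was left out (0.91 to 0.99), and POT A1_at could not be tested when a TH237 array was left out.

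Of the 9 probe sets not called in this contrast, 5 passed the adjusted p but were under 2-fold. These were psbA (0.73 ± 0.22), the lumenal S1_at (0.48 ± 0.18), ccsA (0.44 ± 0.16), the ClpB-related probe set (0.80 ± 0.17) and POT S1_at (0.67 ± 0.15). The lumenal S1_a_at and the small heat shock protein stood at 0.64 ± 0.24 and 0.37 ± 0.38 (limma adjusted p 0.0519 and 0.469). The plastid-encoded rps16 and rpoA stood at -0.03 ± 0.24 and 0.30 ± 0.24 (limma adjusted p 0.932 and 0.352).

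**Figure D3:**
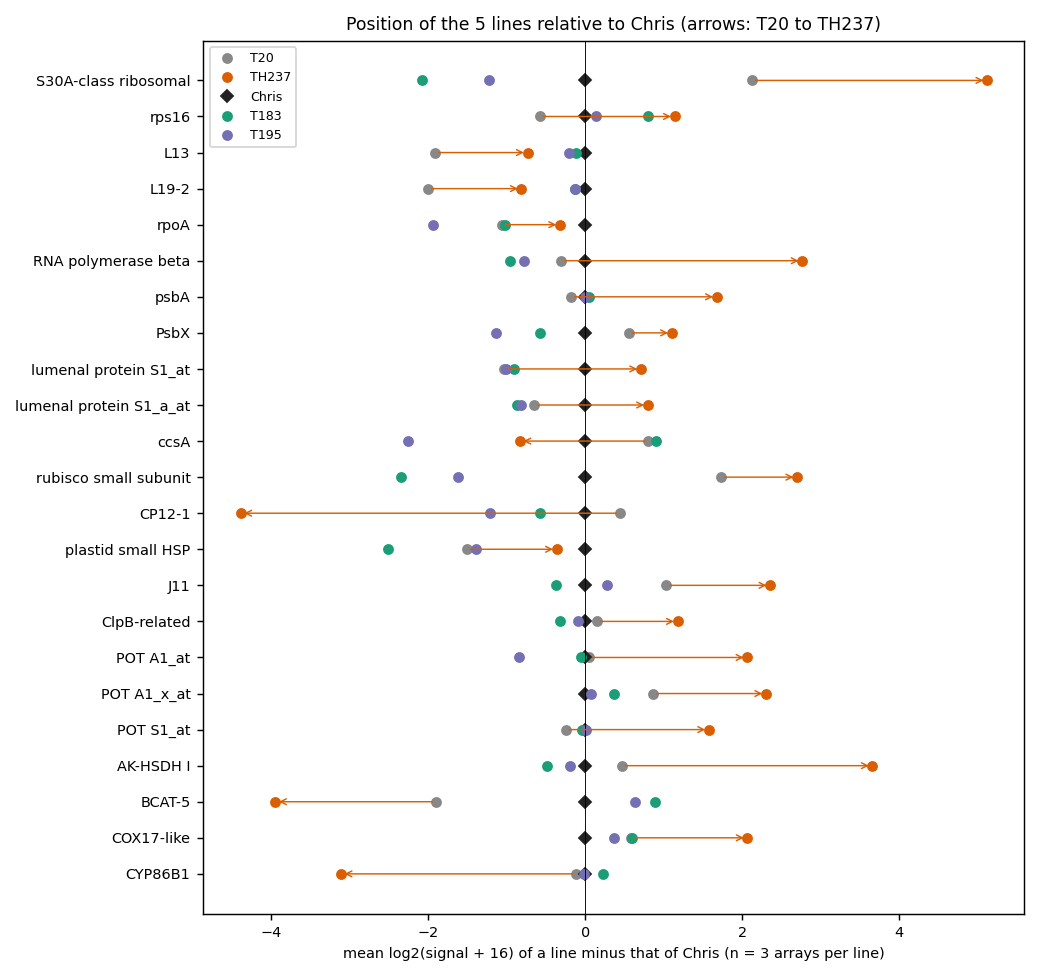
Mean log2(signal + 16) of each line minus that of Chris (horizontal axis) for 23 probe sets, n = 3 arrays per line, with arrows from T20 to TH237. The arrows of L13 and L19-2 start at -1.91 and -2.00 and point toward Chris, and that of BCAT-5 starts at -1.90 and points away.

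Other probe sets of the same sequence clusters measured related transcripts and were not in the list. There were 36 in 13 of the 22 clusters, and 22 of them in 8 clusters were bright enough to be tested. None was called in TH237, and 19 of the 22 were within 2-fold of T20, with a median of 0.26 and a range of -0.60 to 1.86. Since the described probe sets were selected and these were passed over, a gap between them is partly built in, and it was not tested.

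The CP12-1 cluster showed the widest gap of the 8 in TH237. Its other probe sets were as bright as the one described, with mean signals of 53729 in T20 and 55156 in TH237 for Ta.1989.1.S1_a_at and of 45687 and 46733 for Ta.1989.1.S1_x_at. Their differences in TH237 were 0.04 ± 0.16 and 0.03 ± 0.16 against -4.83 ± 0.68 for Ta.1989.3.S1_s_at, and on replicate 1 of T183 and T195 they had 39356 and 43343 (S1_a_at) and 33948 and 38407 (S1_x_at), close to the other arrays of these lines. In TH237 the bright level of this cluster was thus seen with 2 of the 3 probe sets tested.

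In the psbA cluster the other 4 probe sets had differences of 0.70 ± 0.60, 0.72 ± 0.60, -0.03 ± 0.17 and 1.37 ± 0.48 in TH237, all below the 1.86 ± 0.35 of the one described. The other probe set of ccsA stood at 0.999 ± 0.538 in TH237, opposite in sign to -1.64 ± 0.25, and was dim, with means of 181 in T20 and 331 in TH237. For BCAT-5 the other probe set gave -0.17 ± 0.34 in TH237 and was also dim, with means of 143 in T20 and 134 in TH237. In the nuclear background contrast it was called lower, as BCAT-5 was, at -1.08 ± 0.22. In these 3 clusters the values differed between probe sets, and the gaps were not tested.

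The other probe set of the polymerase beta chain stood at 1.86 ± 0.62 in TH237 and was not called. PsbX was also measured by Ta.20878.1.S1_x_at with 0.58 ± 0.23, -0.74 ± 0.23 and -1.17 ± 0.23 in TH237, T183 and T195, values within 0.2 of the one described, while its 2 remaining probe sets had 0.20 ± 0.22 and -0.16 ± 0.30 in TH237 and -0.75 ± 0.22 and -0.63 ± 0.30 in T195. The other 3 of rps16 gave -0.60 ± 0.86, 0.66 ± 0.52 and 0.07 ± 0.32 in TH237, against 1.72 ± 0.38. In the rpoA cluster TaAffx.129824.1.S1_s_at was called lower in T195, by -1.63 ± 0.26, beside -1.94 ± 0.37 for rpoA, but stood at -0.53 ± 0.26 against 0.74 ± 0.37 in TH237, while the 4 brightest of the others differed from Chris by -0.17 to 0.15 in T195.

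**Figure D4:**
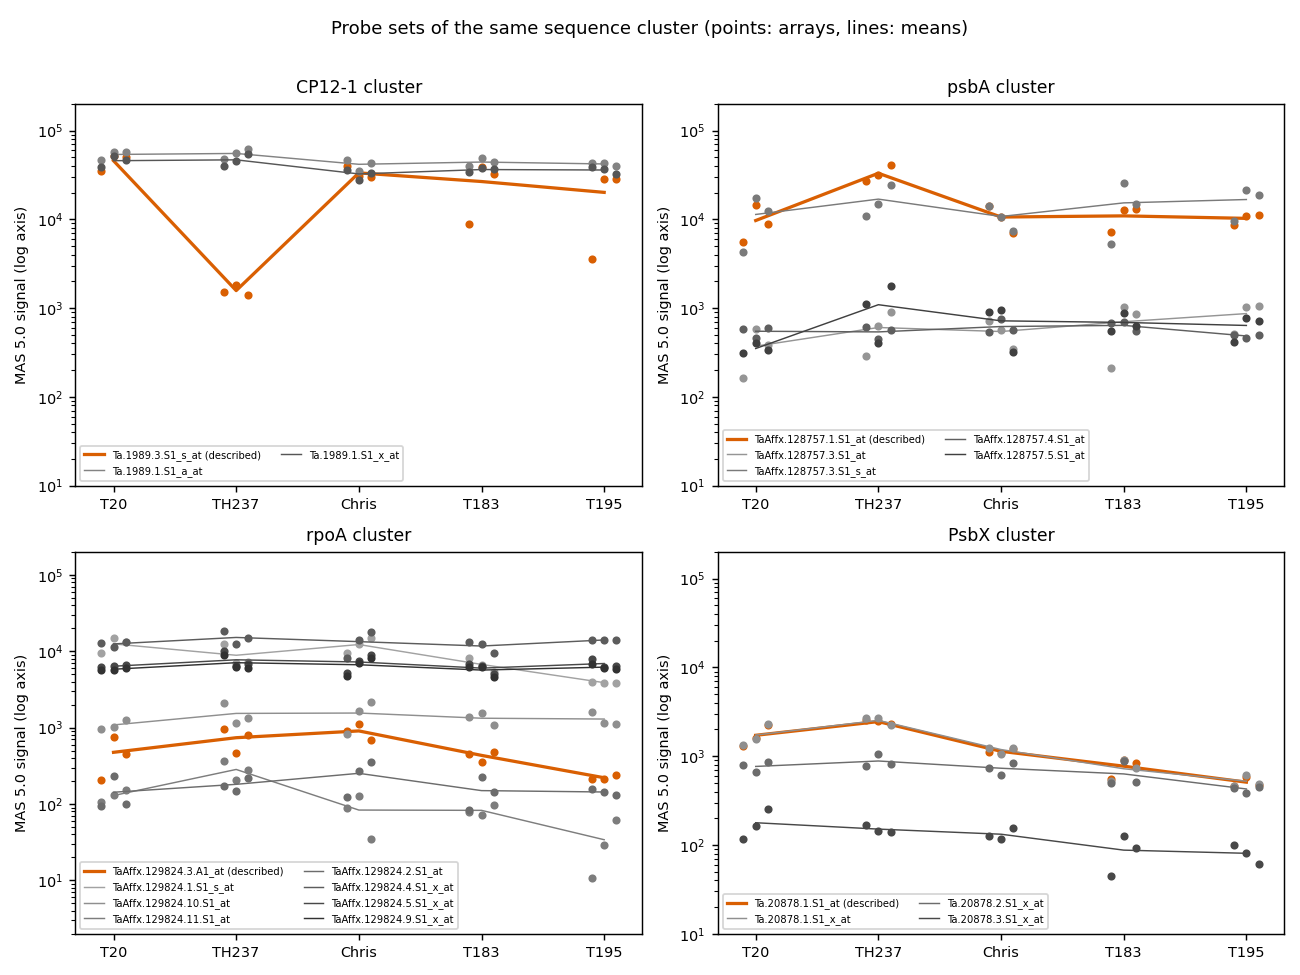
MAS 5.0 signal on a log axis (vertical) in the 5 lines (horizontal) for the tested probe sets of 4 clusters, with points for arrays and lines joining means, the described probe set in orange and the others in grey. In the CP12-1 cluster the orange points of TH237 lie at 1395 to 1803, and the grey means there are 55156 and 46733.

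For comparison, the 39 chloroplast entries that were left out are described by their counts. In TH237 12 were called higher and 8 lower (1.35% and 0.925% of all probe sets tested), with a median difference of 1.35. In the Aegilops lines 6 were called lower in T183 (0.0982% of all) and 7 in T195 (0.222% of all), both with a median of -0.84. In the nuclear background contrast 26 were called higher and 4 lower (6% and 5.76% of all), with a median of 2.24 against 0.67 for the 23. The 22 entries placed in the mitochondrion had 10 called higher and 7 lower in TH237, with a median of 1.11. The plastid gene rbcL had 13 probe sets bright enough to be tested, with medians of 0.65 (TH237), 0.22 (T183) and -0.21 (T195). One call was made among them, for TH237. The lists of entries were chosen on the same contrasts, and no difference between them was tested.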

How the data were processed

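The intensities deposited by the authors are linear MAS 5.0 signals, scaled to a shared trimmed mean on each of 15 arrays and not quantile normalized. The study's own contrasts used RMA values, which were not used here, so its threshold lies on another scale. RNA was labelled by a one-cycle protocol, which primes on poly(A), and how far this sets the signals of plastid transcripts was not tested. Here 16 was added before the log2. Of 61290 probe sets 111 were controls, and 31555 of the others passed the filter, a signal over the 55th percentile of its array in 3 or more hybridizations. A single model of 5 lines was fitted in limma 3.58.1 under R 4.3.3 (residual df 10, prior df 3.20), with Benjamini-Hochberg adjustment over all probe sets tested. Adjusted p were printed for the nuclear background only. They set a difference against the spread between arrays of the same line. Each nucleus is a single genotype, so that they do not speak for nuclear backgrounds beyond these lines. Bounds set the signals of a line that was dim on every array to the 55th percentile of each array, and left the other lines as measured. Lines and replicates come from the labels. Every member is named, and members and lists were chosen with earlier results of these data known. Gene names and compartments are those of the list, since no member carried a symbol in the array annotation used here (1273 probe sets did). The class LHC-II of the list also holds psbA and PsbX, which were kept. Sequences were not used here. The code was tested on simulated data. Alternatives were the value added, the filter, the scaling, the arrays in the model, the test, the fold limit, a replicate block and each array left out.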

Additional observations from a re-analysis of the deposited data

Results flagged for a closer look

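In 5 probe sets every array of TH237 moved one way from T20 and every array of an Aegilops line the opposite way from Chris (4.47% of all probe sets tested). The differences between the lines were not tested, since the list was chosen on these contrasts. S30A differed by 2.99 for TH237 but by -2.08 for T183 and -1.22 for T195, which are dim lines, so that only bounds hold there, at least 1.44-fold and 1.52-fold lower. For the lumenal S1_at probe set the values were 1.74, -0.91 and -1.01, and for PsbX they were 0.54, -0.58 and -1.14, in the same order. The polymerase beta chain was 3.07 in TH237 and -0.96 in T183. For ccsA the signs were turned, with -1.64 in TH237 and 0.90 in T183. T183 and T195 share the Chris arrays.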

How the results depend on the processing

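The 15 members called higher in TH237 came to 8 with the arrays of T20 and TH237 alone (301 of all 31555 probe sets). They were 10 with no filter (374 of 61179) and 11 with 1 added before the log2 (379 of 31555). When an array was left out they were 9 to 15, with 9 without T20 replicate 1 and without TH237 replicate 2. The 4 lower stayed at 4 with any array left out, and 13 of the 19 calls were kept in all 15 cases (S30A, L13, L19-2, polymerase beta chain, psbA, lumenal S1_at, ccsA, CP12-1, POT S1_at, AK-HSDH I, BCAT-5, COX17-like and CYP86B1). Over the arrays left out, the calls that were lost had differences of 1.31 to 2.24 (rps16), 1.16 to 1.75 (lumenal S1_a_at), 1.12 to 1.60 (J11), 0.95 to 1.10 (ClpB-related), 1.43 to 2.35 (POT A1_at) and 1.29 to 1.59 (POT A1_x_at). The methods' t-test with Benjamini-Hochberg adjustment called 0 higher and 0 lower members in TH237 (12 and 4 at an unadjusted p of at most 0.05, as were 13.2% of all probe sets, and 1 of all probe sets after adjustment) and 0 lower in T195 (3 unadjusted, and 6.37% of all). Counts at the unadjusted p say nothing about the members, since the list was chosen on these contrasts. The 2 called lower in T195 were 1 with no filter (36 of all 61179) and 1 with quantile normalization (63 of 31555). They were 3 with 64 added (72 of 31555) and 3 with the filter on all 3 arrays of a line (92 of 28445). With an array left out they were 1 to 3. In T183 the range was 0 to 1, the 1 being the small heat shock protein without Chris replicate 2. In the nuclear background contrast the 9 higher were 14 with no fold limit, 2 with the euplasmic lines alone (3.14% of all) and 16 with the alloplasmic lines alone (8.38%), and the 5 lower were 3 with the latter (7.45%). With an array left out they were 7 to 9 and 4 to 5, with losses among CP12-1, POT A1_at (which no longer passed the filter) and COX17-like. Over all probe sets the counts at no fold limit were 6419 higher and 6470 lower against 1892 and 1818. The contrast reversed with the euplasmic lines alone for the polymerase beta chain (-0.31) and CP12-1 (0.45). The replicate numbers did not pair the arrays (correlation of the deviations of arrays with the same number 0.0075 to 0.030 for TH237 and T20, -0.20 to 0.031 for T183 and Chris). With a replicate block 12 members were higher and 4 lower in TH237 (399 and 274 of all 31555) and 2 lower in T195 (68 of all). In the nuclear background contrast 9 were higher and 5 lower with the block (1896 and 1819 of all). Dim signals depended on the value added: CYP86B1 in TH237 was -4.49 with 1 added and -1.68 with 64, and S30A in T183 was -2.86 and -1.27. The cause was not tested for the other changes.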
